A study of Mus musculus with 8 samples.

Results

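The myogenic transcription factor genes are 9 genes that were picked by name: Myod1, Myog, Myf5, Myf6, Mef2a, Mef2c, Mef2d, Six4 and Tead1. Of the 19188 genes named in at least 1 of 4 ERRα peak lists, 8 were members. Myf6 was named in none. At 20 kb or less from an annotated transcription start site (TSS), 7 of the 9 members had a peak, and they held 49 of the 63890 peaks of that class in the 4 lists together. Each list came from a single ChIP-seq library against the nuclear receptor ERRα. The samples were skeletal muscle (gastrocnemius and soleus) or liver of male C57BL/6N mice aged 2 to 3 months, either wild type (WT) or ERRα3SA, a mouse whose ERRα is a phospho-mutant. Chromatin of 5 mice was pooled for each muscle library and of 2 mice for each liver library. Per the labels, 3 ChIPs were pooled per library. With 1 library per genotype and tissue there was no replicate of any value and no test of any difference, and whole muscle and whole liver do not separate fibres or hepatocytes from the other cells in the tissue. The depth of the libraries is unknown.

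ERRα binds as a monomer or dimer to the ERR response element (ERRE), TCAAGGTCA, and controls genes of mitochondrial energy metabolism together with the coactivator PGC-1α. The members control muscle identity instead. Myod1 and Myf5 commit cells to the muscle lineage, Myog drives terminal differentiation, and Myf6 is expressed in adult fibres. These are basic helix-loop-helix factors that pair with E proteins on E-boxes such as CAGCTG. Mef2a, Mef2c and Mef2d encode MADS-box factors that work with them and with class IIa histone deacetylases. Six4 is a homeodomain factor that acts upstream of the helix-loop-helix genes and with EYA cofactors on fast-fibre genes. Tead1 encodes a factor that binds MCAT elements, whose core is CATTCC, with the cofactors YAP1, TAZ (Wwtr1) and the VGLL proteins.

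The 7 stretches of DNA below are shown because each holds an ERRE, a near match or the ERRE core AAGGTCA inside the intervals of the lists named. Most member peaks, the best-ranked muscle pair of Tead1 among them, lie elsewhere. The Myod1 stretch is in peaks that the files name to a neighbour, and the Mef2a stretch is in peaks more than 20 kb from the TSS. All were read from GRCm38.p6, the build of the peak files, on the strand that carries the motif, with 60 bases to either side. Capitals mark the ERRE, its near match TGAAGGTCA or the core AAGGTCA.
Tead1 intron 2, chr7:112765423-112765551, plus strand, in ERRα3SA muscle and both livers: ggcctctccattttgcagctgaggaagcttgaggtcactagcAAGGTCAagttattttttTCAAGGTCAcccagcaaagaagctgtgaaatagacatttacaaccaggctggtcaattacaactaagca
Tead1 intron 1, chr7:112753870-112753998, minus strand, in both muscle lists: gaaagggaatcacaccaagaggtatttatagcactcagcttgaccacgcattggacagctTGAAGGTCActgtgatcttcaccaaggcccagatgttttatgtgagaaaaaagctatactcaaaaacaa
Mef2d intron 1, proximal site, chr3:88143342-88143468, minus strand, in all 4 lists: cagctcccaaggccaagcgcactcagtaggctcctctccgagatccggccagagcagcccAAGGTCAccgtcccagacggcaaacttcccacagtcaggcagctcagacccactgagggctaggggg
Mef2d intron 1, distal site, chr3:88149247-88149373, minus strand, in all 4 lists: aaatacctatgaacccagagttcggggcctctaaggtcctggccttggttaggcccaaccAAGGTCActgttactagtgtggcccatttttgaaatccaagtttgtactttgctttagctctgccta
Myog intron 2, chr1:134291000-134291126, minus strand, in both muscle lists: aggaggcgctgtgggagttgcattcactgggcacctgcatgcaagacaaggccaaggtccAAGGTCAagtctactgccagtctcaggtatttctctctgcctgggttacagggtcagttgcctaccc
Myod1 downstream, chr7:46393090-46393218, plus strand, in both muscle lists: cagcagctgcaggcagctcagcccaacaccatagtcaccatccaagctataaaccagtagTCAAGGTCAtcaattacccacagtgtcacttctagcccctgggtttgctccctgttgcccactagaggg
Mef2a far upstream, chr7:67446867-67446995, plus strand, in ERRα3SA muscle and ERRα3SA liver: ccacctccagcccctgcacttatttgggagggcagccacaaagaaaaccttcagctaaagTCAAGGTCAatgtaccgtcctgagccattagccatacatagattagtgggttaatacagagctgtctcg

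In GENCODE vM21 on the same build, Myod1 lay at chr7:46376474-46379099 (plus strand), Myog at chr1:134289989-134292548 (plus), Mef2d at chr3:88142372-88172086 (plus) and Tead1 at chr7:112679318-112906807 (plus). Six4 lay at chr12:73099609-73113456 (minus), Mef2a at chr7:67231163-67372858 (minus), Mef2c at chr13:83504034-83667080 (plus), and Myf5 and Myf6 side by side at chr10:107482908-107486134 and chr10:107492853-107494737 (both minus). The genes differed much in size, from 1.89 kb for Myf6 to 227 kb for Tead1, and Tead1 had 13 distinct annotated transcript starts against 1 for each of the 4 myogenic helix-loop-helix genes. The authors' files give each peak the gene of its nearest RefSeq TSS. For most Tead1 peaks the distances in the files imply an internal start at 112759384 on chromosome 7, which coincides with a GENCODE start. The RefSeq annotation read here starts that transcript (NM_001166585) at 112679356 instead. Peaks near the internal start lie more than 20 kb from that position. Tead1 distances below are measured from the internal start unless the first start is named. A peak upstream of the internal start can still lie inside the gene.

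The question put to the lists was where ERRα sat at the genes of the muscle program and whether the phospho-mutant changed this. WT muscle held 18 member peaks at 5 members, ERRα3SA muscle 17 at 4, WT liver 7 at 5 and ERRα3SA liver 7 at 4. The ERRα3SA muscle list was longer than the WT list, with 23571 against 12999 peaks of this class, a ratio of 1.81, and the ratio of member peaks was 0.944. This order of the member counts depended on the setting. ERRα3SA muscle had more than WT muscle by GENCODE starts (25 against 20), at 50 kb or less (23 against 20) and at any distance (36 against 25). It also had more with a score of at least 50 (7 against 4) or 100 (4 against 2). It had fewer at 5 kb or less (5 against 6) or with the ERRα3SA list cut to the length of the WT list (10 against 18). That cut fell among 9967 ERRα3SA muscle peaks tied at a score of 36, and file order decided which of them were kept. Per 1000 peaks of the class, members held 1.38 in WT muscle (95% Wilson interval 0.876 to 2.19), 0.721 in ERRα3SA muscle (0.450 to 1.15), 0.624 in WT liver (0.302 to 1.29) and 0.435 in ERRα3SA liver (0.211 to 0.897). The intervals of all 4 lists overlapped one another. They cover counting error only, and several peaks of 1 gene are not independent draws.

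Counted by gene, the members resembled the genes named in a list. A peak of this class was found at 45.1% of the 19188 genes in WT muscle and at 5 of 9 members, at 63.5% in ERRα3SA muscle and at 4 of 9 members, at 39.2% in WT liver and at 5 of 9, and at 49.2% in ERRα3SA liver and at 4 of 9. Both muscle lists had a peak at 33.3% of genes and at 4 members (Myog, Mef2d, Six4 and Tead1). Both liver lists had one at 29.3% of genes and at 3 members (Mef2a, Mef2d and Tead1). The 19188 are the genes named in a list, which leaves out Myf6. Of 21900 protein-coding genes, 34.5% had a peak of this class in WT muscle and 47.9% in ERRα3SA muscle. In liver the shares were 29.9% for WT and 37.7% for ERRα3SA. The members stood above some of these shares and below others, and 9 genes are few. The number of members with a peak is therefore no result about them. Marker genes, chosen with earlier results of these data known, were set beside the tissue labels. Of 15 skeletal muscle marker genes, 11 had a peak of this class in WT muscle and 13 in ERRα3SA muscle, against 8 and 7 in the WT and ERRα3SA livers. Of 15 liver marker genes, 4 and 6 had one in the muscle lists against 7 and 9 in the liver lists. These differences are of few genes and were not tested, so they do not settle the labels.

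**Figure D1:**
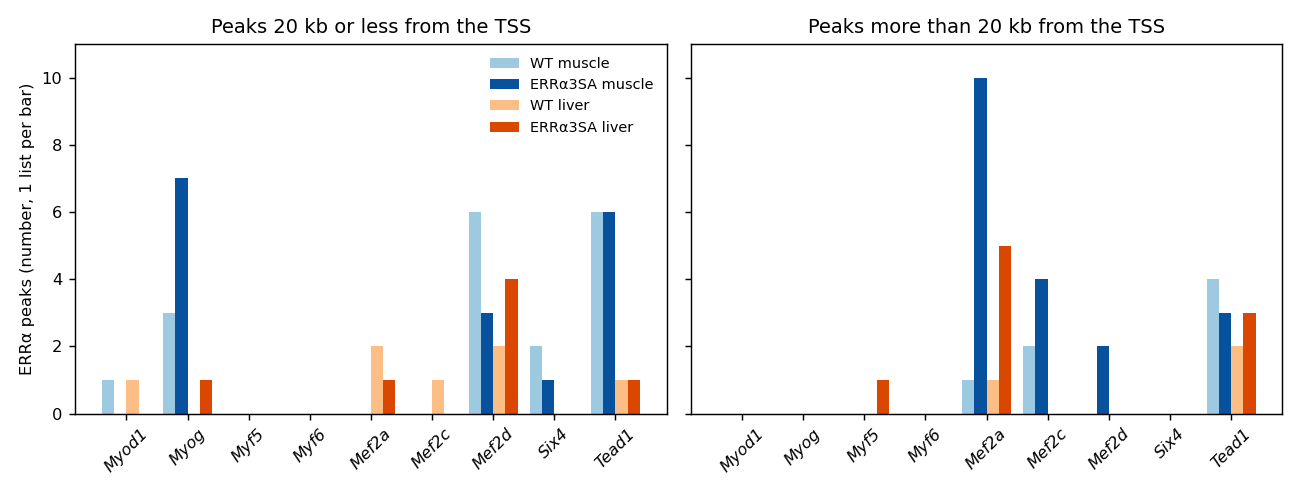
Number of ERRα peaks named to each of the 9 members in each of the 4 lists, 20 kb or less from the TSS (left) and farther away (right), with 1 list per bar and hence no error bar. Mef2d and Tead1 had peaks in all 4 lists near the TSS, Myog reached 7 in ERRα3SA muscle, and the tallest bar on the right is Mef2a in ERRα3SA muscle with 10.

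Some members gathered many peaks and others did not. Tead1 and Mef2d had 6 each in WT muscle, a number reached by 57 of the 8660 genes with a peak there (0.658%). In ERRα3SA muscle Myog had 7, reached by 168 of 12182 genes (1.38%), and Tead1 again had 6, reached by 322 genes (2.64%). Mef2d had 3 in ERRα3SA muscle, reached by 23.3% of those genes, and 4 in ERRα3SA liver, reached by 7.34% of the genes with a peak in that list. Myog had 3 in WT muscle (reached by 10.8% of the genes with a peak there), Six4 2 (32.6%), and Mef2a and Mef2d 2 each in WT liver (31.2%). The long Tead1 gene and its several starts give more sequence to the 20 kb windows than a short gene does, and the part of this in its count was not tested.

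Tead1 held the best-ranked member peak of WT muscle, of ERRα3SA muscle and of both livers. Ranks below are by the peak score, with 1 the highest in its own list. Tied peaks all take the best rank of their tie. The top percent is that rank over the list length, so it is a best case for a tied peak. In WT muscle the interval chr7:112741807-112742250 in intron 1 ranked 659 of 25427, in the top 2.59% of the list. Its counterpart in ERRα3SA muscle, chr7:112741737-112742149, ranked 1608 of 50647 (top 3.17%). The centres of the pair lay 85 bp apart and 343 bases were common to both. They were 17356 and 17441 bp upstream of the internal start but 17 and 102 bp from the start of a GENCODE Tead1 transcript. Neither interval held TCAAGGTCA or AAGGTCA on either strand.

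A pair of Tead1 intervals nearer the internal start had the closest match between genotypes among all members. WT muscle had chr7:112753525-112754079 at rank 1163 (top 4.57%) and ERRα3SA muscle had chr7:112753488-112754115 at rank 1773 (top 3.50%), 5582 and 5583 bp upstream, with centres 1 bp apart. Both held the near match TGAAGGTCA shown above, 132 and 133 bp from their centres. No liver interval covered it.

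The third Tead1 site, about 6 kb downstream of the internal start in intron 2, had the complete ERRE and was present in every list except WT muscle. In WT liver chr7:112765223-112765751 ranked 2403 of 21813 (top 11.02%) and the ERRE lay at the centre of the interval, 0 bp away. In ERRα3SA liver chr7:112764999-112765881 ranked 3657 of 29040 (top 12.6%) with the ERRE 47 bp from the centre. In ERRα3SA muscle chr7:112765153-112765523 ranked 2394 (top 4.73%) and the ERRE lay 149 bp from the centre, towards the edge of the interval. A further core AAGGTCA starts 20 bases before that within the ERRE, and an E-box CAGCTG is also in the printed stretch (in lower case). The authors' annotation places the liver intervals in a MIR, a short interspersed repeat. The absence from the WT muscle list means that no peak was called there, and how far WT coverage fell short of a call cannot be read from a peak list.

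The other Tead1 peaks near a TSS ranked lower. In WT muscle they lay at 15850 bp (rank 6260), 4156 bp upstream (rank 10219), 8407 bp upstream and 17449 bp downstream of the first start (both rank 16894, the lowest score of the list, shared by 8534 peaks). In ERRα3SA muscle they lay 16017 bp upstream of the first start in a LINE repeat (rank 5574), 19913 bp upstream of the internal start (rank 19604) and 10991 bp downstream of it (rank 32824, tied among 17824). None of these overlapped a peak of the other genotype. The threshold fell between the Tead1 peak at 19913 bp and the next member peaks outward, at 20394 bp for Mef2d and 20653 bp for Tead1, all in ERRα3SA muscle.

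**Figure D2:**
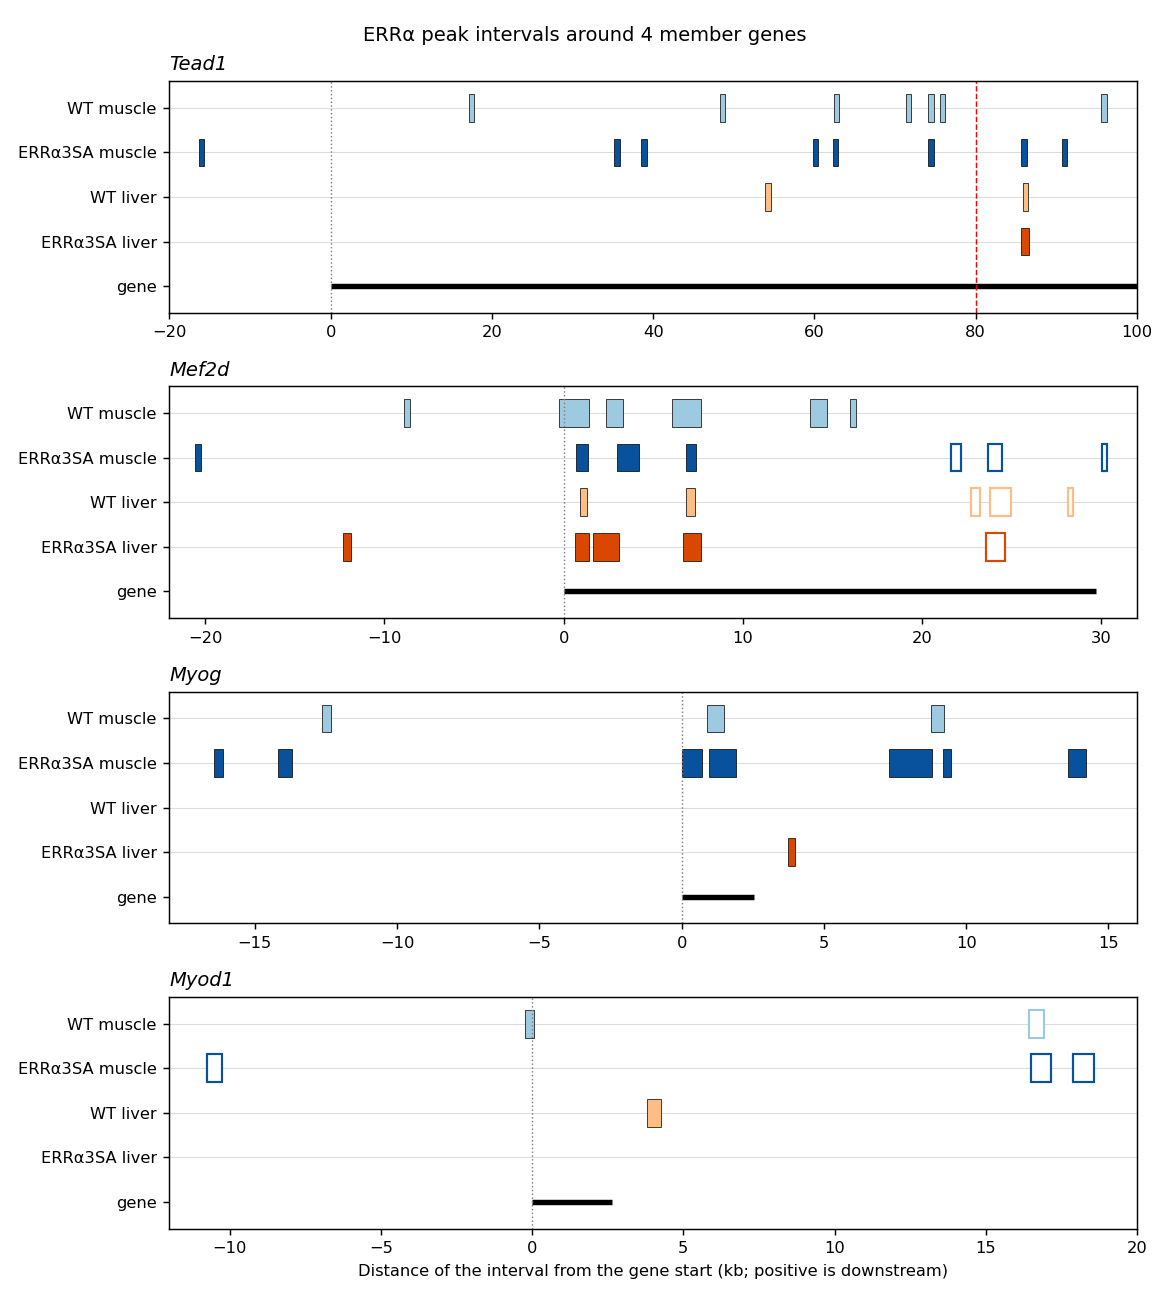
ERRα peak intervals around Tead1, Mef2d, Myog and Myod1, in kb from the start of the GENCODE gene (dotted line), with 1 row per list, the gene as a black bar and narrow intervals widened to stay visible. Filled boxes are peaks named to the gene at any distance, open boxes are peaks 20 kb or less from one of its transcript starts that the files name to a neighbour, and the dashed line in the Tead1 panel is its internal start. The 2 Mef2d intron 1 sites line up in all 4 lists, and the Tead1 site downstream of the dashed line is missing from WT muscle.

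Mef2d was the only member with a site called in all 4 lists. Near its start, WT muscle had a broad interval of 1674 bp at chr3:88142137-88143810 that spans the TSS and ranked 1543 (top 6.07%). ERRα3SA muscle had a narrower one of 657 bp at chr3:88143072-88143728, which lay wholly inside it and ranked 1773 (top 3.50%). The livers had chr3:88143293-88143703 at rank 4147 (top 19.0%) in WT and chr3:88143001-88143789 at rank 5225 (top 18.0%) in ERRα3SA. The core AAGGTCA of the proximal site was inside all 4 intervals, 5 bp from the centre in ERRα3SA muscle, 10 bp in ERRα3SA liver, 93 bp in WT liver and 432 bp in WT muscle. Because the WT muscle interval was so broad, its centre was 427 bp from that of ERRα3SA muscle and the pair was not counted as shared under the rule of 300 bp between centres, although all 657 bases of the ERRα3SA interval were common to both.

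The distal Mef2d site lay 7 kb into intron 1. The interval chr3:88148439-88150042 in WT muscle ranked 10219 (top 40.2%), and chr3:88149223-88149764 in ERRα3SA muscle ranked 11987 (top 23.7%). In liver chr3:88149194-88149709 ranked 5464 (top 25.0%) in WT and chr3:88149039-88150064 ranked 3862 (top 13.3%) in ERRα3SA, which made it the best Mef2d peak of that list. The core AAGGTCA shown for it was in all 4 intervals. Of the 32 separate sites that the 49 member peaks formed when overlapping intervals were joined, these 2 Mef2d sites were the only ones present in all 4 lists.

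Mef2d had 6 peaks in WT muscle and 3 in ERRα3SA muscle. A weak interval about 3 kb downstream of the TSS was present in both genotypes (rank 15869 in WT and 32824 in ERRα3SA) with 370 bases in common and centres 731 bp apart, and in ERRα3SA liver (rank 13000). The WT muscle peaks at 14219 and 16155 bp in introns 3 and 4 (both rank 10219) and at 8751 bp upstream (rank 16803) had no counterpart in ERRα3SA muscle. The count depends on naming. Inside the 3' part of Mef2d and just past it, ERRα3SA muscle had 3 more peaks 20 kb or less from a GENCODE Mef2d start (ranks 11987, 11987 and 19604), WT liver 3 and ERRα3SA liver 1, all named by the files to the neighbour 1700113A16Rik, and WT muscle had none. By GENCODE starts Mef2d therefore had 6 peaks in WT muscle, 6 in ERRα3SA muscle, 5 in WT liver and 5 in ERRα3SA liver.

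Mef2a and Mef2c had no peak of this class in either muscle list. Mef2a had one annotated to its promoter in both livers, at 174 bp upstream in WT (chr7:67372883-67373182, rank 8204, top 37.6%) and 108 bp upstream in ERRα3SA (chr7:67372800-67373133, rank 13000, top 44.8%). The ERRα3SA interval held a match to the MEF2 consensus, the only one among the 49 member peaks of the class, in a list where 0.292% of peaks of the class had one in the central 300 bp. WT liver had a further Mef2a interval 6542 bp upstream, chr7:67379127-67379673 (rank 6227), with TGAAGGTCA 13 bp from its centre. The nearest muscle peak to a Mef2a start was in ERRα3SA, 5222 bp away from an internal start and named by the files to Lysmd4 (rank 11987). Mef2c had 1 peak in WT liver, 12227 bp upstream of an internal start and inside a LINE repeat (rank 16370 of 21813, top 75.0%). In ERRα3SA muscle an interval of the lowest score lay over its exon 6, named to a TSS 59554 bp away but 100 bp from a GENCODE start.

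Myog had the most peaks of the class of any member in a single list, 7 in ERRα3SA muscle. WT muscle had 3, the best being chr1:134290886-134291493 in intron 2 (1185 bp downstream of the TSS, rank 2776, top 10.9%). ERRα3SA muscle had a counterpart at chr1:134290969-134291899 (1430 bp, rank 7823, top 15.4%), with centres 245 bp apart and 525 bases in common. Both held the core AAGGTCA shown above (the printed stretch reaches into an exon of Myog), 126 bp from the WT centre and 371 bp from the ERRα3SA centre. The best Myog peak of ERRα3SA muscle was a different one, chr1:134289990-134290699, which covered exon 1 (340 bp downstream of the TSS, rank 4249, top 8.39%). No WT muscle interval overlapped it.

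The remaining Myog peaks lay in the flanks. In ERRα3SA muscle these were 2 intergenic intervals 13950 and 16285 bp upstream (ranks 31556 and 32824) and 3 intervals at 8029, 9305 and 13881 bp downstream, all 3 inside the neighbouring gene Ppfia4, a scaffold protein gene on the opposite strand. In WT muscle they were 12510 bp upstream (rank 10219) and 8964 bp downstream, the latter also in Ppfia4 (rank 16894). Its edges touched both the 8029 and the 9305 bp intervals of ERRα3SA muscle, by 35 and 33 bases. Thus 4 of the 5 flanking peaks of ERRα3SA muscle had a score of 30 to 33, at or close to the minimum of the list. The last, at 13881 bp, had a score of 36 (rank 19604, top 38.7%), the median of all peaks of the class. In liver, the WT list had no peak within 49921 bp of the Myog start and ERRα3SA had 1, at 3840 bp downstream (rank 18865 of 29040, top 65.0%).

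Myod1 had a promoter peak in WT muscle, chr7:46376227-46376531, centred 95 bp upstream of the TSS (rank 10219 with 5377 peaks tied, top 40.2%), and it held an E-box CAGCTG. ERRα3SA muscle had no peak named to Myod1, WT liver had 1 intergenic peak 4015 bp downstream (rank 12528, top 57.4%) and ERRα3SA liver had none within 65079 bp. A stronger muscle site lay downstream and was named by the files to the potassium channel gene Kcnc1. In WT muscle it was chr7:46392894-46393393, 16669 bp downstream of the Myod1 TSS, at rank 2194 (top 8.63%), and in ERRα3SA muscle chr7:46392982-46393625 at rank 10911 (top 21.5%). The pair counted as shared, no liver peak overlapped it, and both intervals held the complete ERRE shown above, 11 bp from the centre in WT and 149 bp in ERRα3SA. ERRα3SA muscle also had an interval 10497 bp upstream of Myod1, named to the noncoding RNA gene Munc, with 4 copies of CAGCTG but at the lowest score of the list.

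Six4 had peaks in muscle and none in liver, where the nearest peak of any name was 59510 bp away in WT and 51890 bp in ERRα3SA. In intron 1, chr12:73111580-73112056 in WT muscle (1427 bp, rank 10219, top 40.2%) and chr12:73111886-73112428 in ERRα3SA muscle (1088 bp, rank 11987, top 23.7%) had 171 bases in common, and their centres were 339 bp apart, just over the limit for a shared peak. WT muscle had another over exon 3 at 9484 bp (rank 10219), with the core AAGGTCA and an E-box CAGCTG. The intron 1 intervals had neither, but each held CATTCC.

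Myf5 and Myf6 had no peak nearby in any list. The closest peak of any name to Myf5 was 580330 bp away in WT muscle and 150034 bp in ERRα3SA muscle. In liver the distances were 122931 bp for WT and 96641 bp for ERRα3SA. The last, an interval in intron 4 of Lin7a at rank 15499, was the only one in the 4 lists with Myf5 as its gene. For Myf6 the closest were 571727, 141431, 131534 and 105244 bp away.

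**Figure D3:**
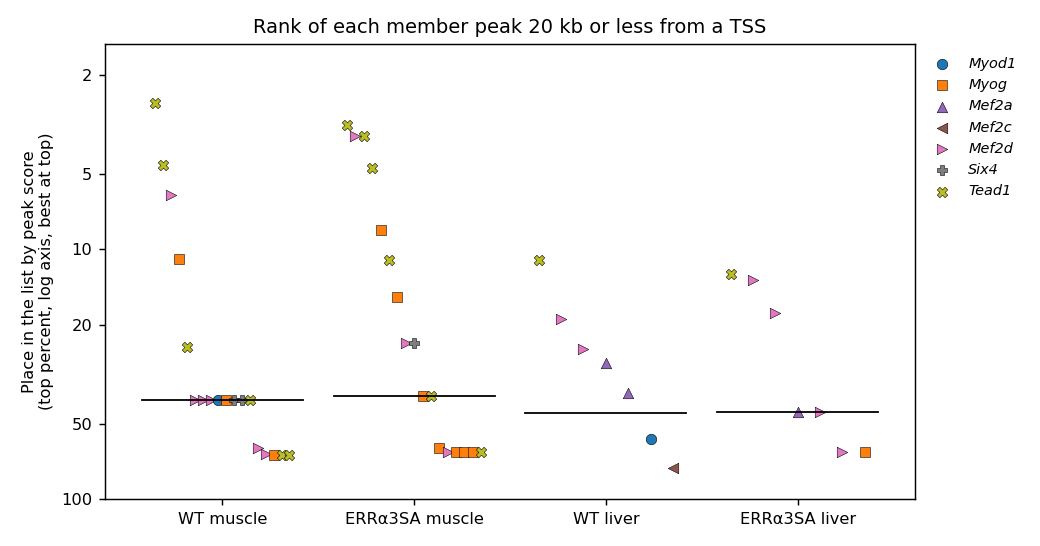
Place of each member peak 20 kb or less from a TSS in its own list. It is the rank by peak score in percent of the list length (log axis, best at the top). Tied peaks all take the best rank of their tie. The black bar is the median of all peaks of that class. The best-placed member peak was one of Tead1 in every list, and many member peaks of the muscle lists shared the tied scores near 40% and 65%.

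By rank, the members' median equalled that of all peaks of the class in WT muscle and ERRα3SA liver and was better in ERRα3SA muscle and WT liver. The median member peak was in the top 40.2% of the WT muscle list, equal to the median of all peaks of the class, in the top 23.7% against 38.7% in ERRα3SA muscle, in the top 28.5% against 45.2% in WT liver and in the top 44.8% in ERRα3SA liver, again equal. In ERRα3SA muscle both medians fell on tied scores, 42 (5711 peaks) and 36 (9967 peaks). The member medians rest on few peaks, several of them of 1 gene, and the differences were not tested. A score of 100 or more was reached by 2 of 18 member peaks in WT muscle (6.13% of all peaks of the class), both of Tead1, and by 4 of 17 in ERRα3SA muscle (6.76%), 3 of Tead1 and 1 of Mef2d. In liver it was reached by 1 of 7 in WT (20.2%) and 3 of 7 in ERRα3SA (22.5%). Their median widths were 467 bp (WT) and 542 bp (ERRα3SA) in muscle and 466 and 789 bp in liver, against 470, 461, 461 and 449 bp over all peaks of the class, so that the 7 in ERRα3SA liver were the widest against their list. Their median GC contents of 53.5%, 55.0%, 52.6% and 53.6% stood beside 54.6%, 54.0%, 51.1% and 51.4%.

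Most member peaks were intronic. In WT muscle 14 of 18 were in introns, where 45.7% of all peaks of the class lay, and 1 was in a promoter (11.9% of all). In ERRα3SA muscle 11 of 17 were in introns (47.0%) and 0 in a promoter (8.18%). Most of these muscle peaks came from Tead1 and Mef2d, and several peaks of 1 gene are not independent draws. Each muscle list also had an intronic Myog peak that lay in the neighbouring gene Ppfia4. In liver 4 of 7 were in introns in each genotype (48.3% and 48.2%). None of the 18 in WT muscle was annotated to a repeat (16.9% of all), and 1 of 17 in ERRα3SA muscle was (19.7%).

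The genotypes were then compared by position. A peak counted as shared when the centre of a peak in the other list was 300 bp away or less. Of the 17 ERRα3SA muscle member peaks, 4 were shared with WT muscle (23.5%, Wilson interval 9.56 to 47.3%), against 12.9% of all 23571 peaks of the class. Of the 18 in WT muscle, 4 were shared (22.2%, 9.001 to 45.2%), against 23.4%. The shared ones were both Tead1 intron 1 sites, the distal Mef2d site and the Myog intron 2 site. When 1 common base sufficed, 9 of 17 (52.9%, 31.0 to 73.8%) and 8 of 18 (44.4%, 24.6 to 66.3%) were shared, against 16.9% and 30.6% of all. The 9 came from 4 genes, Tead1 with 2, Mef2d with 3, Myog with 3 and Six4 with 1, so they are fewer than 9 independent observations.

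In liver 4 of 7 member peaks were shared between genotypes in each direction (57.1%, 25.0 to 84.2%), against 49.2% of all WT and 34.2% of all ERRα3SA peaks of the class. They were the Mef2a promoter, both Mef2d intron 1 sites and the Tead1 intron 2 site. Between tissues, 3 of 17 ERRα3SA muscle member peaks had a liver peak of either genotype at 300 bp or less (17.6%, 6.19 to 41.0%), against 18.6% of all, namely the Tead1 intron 2 site and both Mef2d sites. In WT muscle it was 1 of 18, the distal Mef2d site (5.56%, 0.988 to 25.8%), against 21.5% of all. That low count is set in part by the centre rule, which leaves out the broad WT interval at the proximal Mef2d site. By 1 common base it was 3 of 18 (16.7%, 5.84 to 39.2%) against 25.9% of all in WT muscle, and 4 of 17 (23.5%, 9.56 to 47.3%) against 22.5% in ERRα3SA muscle. Of the 32 joined sites, 10 were in WT muscle alone, 7 in ERRα3SA muscle alone, 8 in both muscle lists, and 4 in a muscle and a liver list. The same counts over the joined sites of all genes are not given, so these are no result about the members.

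The complete ERRE was rare in all muscle peaks of the class, so its count of 0 at the centres of member peaks is no result about them. TCAAGGTCA, searched on both strands in the central 300 bp, was in 0 of 18 WT muscle member peaks, which allows a share of up to 16.7%, and in 0 of 17 in ERRα3SA muscle, which allows up to 17.6%. Over all peaks of the class the shares were 4.45% and 4.86%, a rate at which 18 or 17 peaks would on average hold fewer than 1. In liver 1 of 7 had it in each genotype, the Tead1 intron 2 site, against 15.2% and 14.9% of all. The core AAGGTCA, which is part of the ERRE, was in the central 300 bp of 7 of 18 WT muscle member peaks (13.8% of all) and 3 of 17 in ERRα3SA muscle (15.2%). Over whole intervals it was in 9 of 18 (23.2%) and 6 of 17 (24.7%). Several of these are the same piece of DNA called in both genotypes.

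The sequence motifs of the members' own protein families were also counted. CAGCTG was in the whole interval of 8 of 18 WT muscle member peaks (35.0% of all) and 4 of 17 in ERRα3SA muscle (36.6%). CATTCC was in 5 of 18 (25.6%) and 4 of 17 (26.6%). In the central 300 bp, CAGCTG was in 5 of 18 (21.5%) and 3 of 17 (22.8%) and CATTCC in 1 of 18 (15.0%) and 1 of 17 (15.6%). No muscle member peak matched the MEF2 consensus in its interval, and 0.569% and 0.556% of all peaks of the class did. A match describes the reference sequence and not a bound factor.

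**Figure D4:**
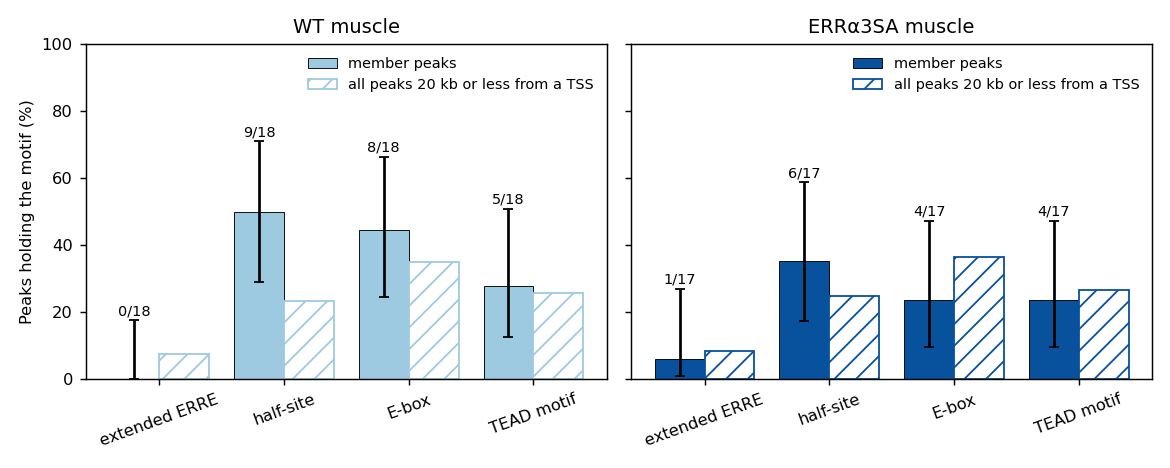
Percent of peaks whose whole interval holds TCAAGGTCA (extended ERRE), its core AAGGTCA (labelled half-site), CAGCTG (E-box) or CATTCC (TEAD motif), for member peaks with their counts (filled) and for all peaks 20 kb or less from a TSS (hatched). Bars of member peaks carry 95% Wilson intervals for counting error, which are wide at 18 and 17 peaks and span the hatched bar in 7 of the 8 pairs.

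For the 8 members named in a list, the genes with the same presence and absence over the 4 lists were counted. Mef2d and Tead1 shared the pattern of a peak in all 4 lists with each other and with 3074 genes in all (16.02% of those named), Six4 the pattern of both muscle lists only with 1667 (8.69%), Myog with 1151 (6.00%), Mef2a with 768 (4.003%), Mef2c with 632 (3.29%) and Myod1, which had WT peaks only, with 212 (1.10%). Myf5, with no peak of the class, shared that with 2200 (11.5%). These counts include the member.

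Farther than 20 kb from the TSS, members had 38 peaks, 7 in WT muscle, 19 in ERRα3SA muscle, 3 in WT liver and 9 in ERRα3SA liver. Peaks at 20 kb or less made up 51.1% of the WT muscle list and 46.5% of the ERRα3SA muscle list. In liver they made up 51.4% for WT and 55.5% for ERRα3SA, and all other peaks were distant. The members' share of all distant peaks is not given, so these counts are no result about them. Mef2a held 10 of the 19 in ERRα3SA muscle and 1 of the 7 in WT muscle, and 5 and 1 in the ERRα3SA and WT livers, all upstream of the gene. The best-ranked one in ERRα3SA muscle, 73861 bp upstream (chr7:67446435-67447004, rank 4392, top 8.67%), overlapped an ERRα3SA liver interval 74172 bp upstream (rank 8754), and both held the complete ERRE printed for Mef2a. Another pair overlapped between the ERRα3SA lists, 115472 and 115389 bp upstream, with the liver interval at rank 5616. The only WT muscle interval, 89131 bp upstream (rank 10219), overlapped one in ERRα3SA muscle. The best distant peaks of Tead1 ranked 3785 in WT muscle (79669 bp upstream) and 11987 in ERRα3SA muscle, and those of Mef2c 4057 and 18729, without an overlap between the genotypes. The authors' annotation places the Tead1 peak of WT muscle in an LTR repeat. Both Mef2c peaks are annotated to LINE repeats, 345542 bp upstream in WT and 330040 bp upstream in ERRα3SA muscle.

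**Figure D5:**
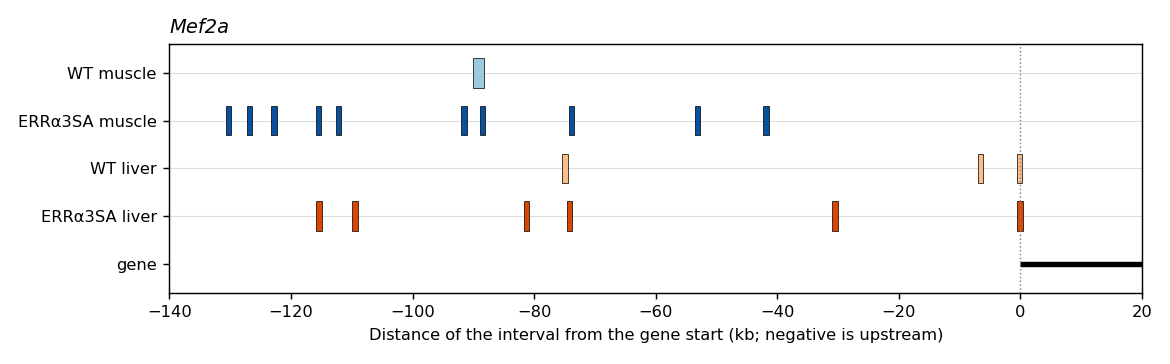
Peak intervals upstream of and around the Mef2a start, in kb from the start (dotted line), with 1 row per list, the gene as a black bar and narrow intervals widened to stay visible. ERRα3SA muscle has 10 intervals upstream and none at the start, and the liver lists have one each at the start, which the ERRα3SA interval covers and the WT interval does not.

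Beyond the members, 44 further genes of the myogenic network were grouped by role, with 24 having a peak of the class in WT muscle (54.5%, beside 45.1% of all genes), 32 in ERRα3SA muscle (72.7%, beside 63.5%), 17 in WT liver (38.6%, beside 39.2%) and 23 in ERRα3SA liver (52.3%, beside 49.2%). The relatives and cofactors of Six4 (Six2, Six5 and Eya1 to Eya4) had 5 of 6 in WT muscle, 3 in ERRα3SA muscle, 0 in WT liver and 1 in ERRα3SA liver. Factors of satellite cells and muscle precursors (Pax3, Pax7, Lbx1 and Meox2) had 2 of 4 and 4 of 4 in muscle and 1 and 3 in liver. TEAD genes and cofactors had 3 of 8 and 5 of 8 in muscle and 3 of 8 and 4 of 8 in liver. Of the E protein genes Tcf3, Tcf4 and Tcf12, only Tcf3 had a peak of the class in any list.

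Of these 44 genes, 11 had a muscle peak shared by the genotypes: Hdac7, Eya2, Eya3, Tead3, Vgll2, Vgll3, Pax7, Lbx1, Nfatc2, Nfatc4 and Nfix. The share of all genes with such a shared peak is not given, so this count is no result about the network. Among the 11 genes, Nfatc2, Hdac7 and Nfatc4 had a muscle peak that ranked above every member peak of the same list. Nfatc2, a calcineurin-regulated factor, had a peak at rank 39 in WT muscle and 48 in ERRα3SA muscle, 3521 and 3372 bp downstream of its TSS. Hdac7, a class IIa deacetylase that binds MEF2 factors, had one upstream of its TSS at rank 110 and 123, and also at rank 194 in WT liver and 88 in ERRα3SA liver. Nfatc4 had one at rank 600 and 1121. These were the 3 best-ranked genes of the wider network in each muscle list.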

How the data were processed

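ERRα ChIP-seq peak lists of WT and ERRα3SA skeletal muscle and liver (1 library and 1 list each) were used as deposited. Per the labels the authors trimmed reads with Trimmomatic 0.36, aligned them to mm10 with BWA 0.7.12, kept unique alignments, removed duplicates with Picard 2.0.1, called peaks against input DNA with MACS2 2.1.1.20160309 and annotated them with HOMER 4.9.1. The peak score in the deposited files has no stated scale. It was used to rank peaks within a list and for the fixed minima of 50 and 100. Such a minimum is not alike across lists: 6.13% of the peaks of the class in WT muscle and 20.2% in WT liver reached 100. The deposited intervals vary in width and give no summit, so a centre here is the middle of an interval. The deposited GC fraction of every member interval was recomputed from GRCm38.p6 and matched at 1-based starts, which gave the coordinate system. The 4 input libraries were not analysed here. No column of the authors' own comparisons was used.

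Members were found by gene name, with an absolute distance to TSS of at most 20000 bp. Peaks were joined by centres 300 bp apart or less, or by common bases, and motifs were searched on both strands. The interval and motif steps were tested on simulated data. Python 3.11.15, pandas 2.3.3, scipy 1.17.1 and pysam 0.24.0 were used. By the rule for named genes all 9 members are named, with each peak of the class (for a gene with more than 4 in a list, the 4 best-ranked, with the rest as a count or by rank and distance only), and beyond 20 kb the best-ranked one. Of the wider network, genes with a shared muscle peak and the 3 best-ranked per genotype are named. Some genes of that network are not reported here. The members, the wider groups and the marker lists were chosen with earlier results of these data known. Without replicates no test was run. Intervals are 95% Wilson intervals, floors are 3 counts, and both cover counting error only. Alternatives were the score minimum, the distance limit, GENCODE starts, lists of equal length, the sharing rule and the motif. RefSeq promoters of Myog, Myf5, Mef2a, Mef2c, Mef2d and Six4 were at hand and are not printed.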

Additional observations from a re-analysis of the deposited data

Results flagged for a closer look

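Mef2d went opposite ways in the tissues. Near its TSS it had 3 peaks in ERRα3SA muscle against 6 in WT muscle (a difference of -3) and 4 in ERRα3SA liver against 2 in WT liver (a difference of 2). With 1 list per genotype and tissue this difference was not tested, and by GENCODE starts the counts were 6 and 6 in muscle and 5 and 5 in liver.

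Peaks farther than 20 kb from the TSS were left out of the main comparisons. Mef2a had 10 of them in ERRα3SA muscle against 1 in WT muscle, and 5 in ERRα3SA liver against 1 in WT liver. Over peaks at all distances, the ERRα3SA muscle list was 1.99 times as long as the WT list and the ERRα3SA liver list 1.33 times. The ratios for distant peaks alone are not given, and the part of list length in these counts was not tested.

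Mef2c had 4 distant peaks in ERRα3SA muscle against 2 in WT muscle, and none overlapped between genotypes. The best were at ranks 18729 and 4057, both annotated to LINE repeats. Mef2d had 2 in ERRα3SA muscle against 0, both at the lowest score of the list. Tead1 had 3 in ERRα3SA liver against 2 in WT liver. Myf5 had 1 in ERRα3SA liver against 0.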

How the results depend on the processing

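No paired analysis was possible because each genotype and tissue has a single library and the result comes from no test. Of 70 recomputed values over 12 results, 38 were within 1.5 times the reported count and 32 were not, and none of the causes was tested beyond what each setting removes or adds. With a score of at least 50, WT muscle kept 4 peaks at 3 members, ERRα3SA muscle 7 peaks, WT liver 4 at 3 and ERRα3SA liver 3 at 2. With a score of at least 100 the counts were 2 peaks at 1 member, 4 at 2, 1 at 1 and 3 at 2 in the same order of lists. At a distance of 5000 bp or less, WT muscle had 6 peaks, ERRα3SA muscle 5, WT liver 3 at 3 members and ERRα3SA liver 4. At any distance ERRα3SA muscle had 36 (WT muscle 25) and ERRα3SA liver 16. By GENCODE starts ERRα3SA muscle had 7 members and 25 peaks (WT muscle 20) and WT liver 13 peaks. With the ERRα3SA muscle list cut to the length of the WT list, 10 member peaks were left, and file order decided among peaks tied at the cut. Sharing of ERRα3SA muscle member peaks with WT muscle gave 2 by centres 100 bp apart, 10 by centres 1000 bp apart, 9 by 1 common base and 2 with a score of at least 100. In liver a score of at least 100 gave 1. The ERRE count of 0 became 2 with TNAAGGTCA and 1 over whole intervals. A peak list sets no bound on binding below its calling threshold.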
